A study of Homo sapiens with 6 samples.

Results

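The genes examined were 10 regulators of apoptosis of the BCL2 family, taken by gene symbol from a table of 19899 genes. They were the anti-apoptotic members BCL2, BCL2L1, MCL1 and BCL2A1, the pore-forming effectors BAX and BAK1, and the BH3-only members BBC3, PMAIP1, BCL2L11 and BIK. All 10 were found in the table. RNA-seq had been performed in parental COV434 cells, an established ovarian line that the study treats as a line of SCCOHT, the hypercalcemic small cell carcinoma of the ovary, in which BRG1 protein is lost. BRG1 is the product of SMARCA4 and one of the ATPases that drive SWI/SNF, a complex that moves nucleosomes. Control samples (n = 3) received the plasmid pCDNA3-neo and BRG1 samples (n = 3) the plasmid PBJ5-BRG1. Both groups also received the puromycin resistance plasmid pBABE-puro, with 10 to 6.25 parts of the first plasmid to 1 part of it, and both were selected in puromycin at 2 to 3 µg/ml from 24 hours after transfection and for 3 days. The labels number the samples as replicates without naming separate cultures, so p-values measure the spread between these samples. Because the groups carried different plasmids, the effect of BRG1 and that of the plasmid backbone cannot be told apart, and all samples came from a single line.

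The BCL2 family controls the mitochondrial route of apoptosis. BAX and BAK1 form pores in the outer mitochondrial membrane, and cytochrome c released through them sets off the caspase cascade. The anti-apoptotic members hold BAX and BAK1 back, and the BH3-only members, which share with the rest of the family only the short BH3 helix, bind the anti-apoptotic members or activate the effectors. Much of this control lies in protein binding and protein turnover, which RNA levels do not measure. BCL2L1 and MCL1 can each be spliced into a long anti-apoptotic form and a short form that promotes death, and the gene-level values used here do not separate these forms.

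2 of the 10 members rose with BRG1 reexpression. BCL2L1, which encodes the survival protein BCL-XL, rose 3.64-fold, and PMAIP1, which encodes the BH3-only protein NOXA, rose 3.17-fold. No member was called lower (0 of 10). At an unadjusted p under 0.05 there were 3 members on the higher and 1 on the lower side. The share of all genes under that unadjusted threshold was not counted, here or for the lists below, so those counts are not read further. DESeq2 gave an adjusted p for 16002 genes, and at a threshold of 0.05 it called 11.0% of them higher and 1.84% lower. edgeR, which tested 9 members, called the same members higher and 0 lower, against 9.57% and 1.02% of its 14246 genes. Same-numbered Control and BRG1 samples varied together, so a fit with the replicate number as a block was also made. In that paired fit DESeq2 called 3 members higher (BCL2L1, PMAIP1 and BAK1) and 1 lower (BBC3), against 13.4% and 6.61% of all genes. The 3 BRG1 samples lay above the 3 Control samples for 3 members and below them for 1 member, while over all tested genes the groups were separated in this way for 16.7% and 9.92%. The median log2 fold change was 0.37 over the 10 members, 0.36 without BCL2A1, and -0.01 over all tested genes.

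The study searched regions bound or opened by BRG1 in its other SCCOHT lines, and promoters of epithelial genes, for the motifs of transcription factors. The regions that opened lay mostly in introns and between genes. Shown first are the start regions of BCL2L1, PMAIP1 and BBC3, the members that both DESeq2 and edgeR called with or without the block. Each is a RefSeq window on GRCh38.p14, from 250 bases before to 50 bases after an annotated start, written 5′ to 3′ on the strand of the gene. RefSeq windows were found for 8 of the 10 members, in 9 windows, and none was found for MCL1 and BIK. BCL2L1 has a pair of windows on chromosome 20, on the minus strand, at chr20:31723914-31724213 and chr20:31722819-31723118. The window of PMAIP1 is on the plus strand at chr18:59899746-59900045, and that of BBC3 on the minus strand at chr19:47232618-47232917. Capitals mark the motif matches described after the sequences.
BCL2L1 upstream start: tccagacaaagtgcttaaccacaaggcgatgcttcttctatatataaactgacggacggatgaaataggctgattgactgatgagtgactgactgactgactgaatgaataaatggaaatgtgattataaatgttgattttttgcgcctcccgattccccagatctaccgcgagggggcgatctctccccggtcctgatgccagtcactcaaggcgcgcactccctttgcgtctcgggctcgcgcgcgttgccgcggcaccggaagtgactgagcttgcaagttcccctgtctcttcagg
BCL2L1 downstream start: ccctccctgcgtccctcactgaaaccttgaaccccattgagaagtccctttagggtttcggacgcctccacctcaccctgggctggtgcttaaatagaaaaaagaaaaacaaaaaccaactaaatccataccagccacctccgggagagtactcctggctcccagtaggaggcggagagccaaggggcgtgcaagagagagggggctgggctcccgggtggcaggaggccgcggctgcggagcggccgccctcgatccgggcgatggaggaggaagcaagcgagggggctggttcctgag
PMAIP1: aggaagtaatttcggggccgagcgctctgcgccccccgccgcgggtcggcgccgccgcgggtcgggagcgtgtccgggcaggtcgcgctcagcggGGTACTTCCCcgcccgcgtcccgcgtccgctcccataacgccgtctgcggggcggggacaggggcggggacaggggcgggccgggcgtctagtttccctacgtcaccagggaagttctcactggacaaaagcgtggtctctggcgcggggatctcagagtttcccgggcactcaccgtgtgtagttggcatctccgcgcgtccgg
BBC3: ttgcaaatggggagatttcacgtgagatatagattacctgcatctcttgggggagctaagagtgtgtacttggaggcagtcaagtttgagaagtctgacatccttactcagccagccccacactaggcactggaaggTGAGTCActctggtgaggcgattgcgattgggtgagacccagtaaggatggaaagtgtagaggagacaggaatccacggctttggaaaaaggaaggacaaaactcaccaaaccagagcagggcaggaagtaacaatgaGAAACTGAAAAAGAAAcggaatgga

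Motifs were searched on both strands, with positions counted from the annotated start as 1. Those reported here were AP-1 (TGANTCA), CRE (TGACGTCA), the interferon-stimulated response element ISRE (GAAA, any 2 bases, GAAA), kappaB (GGGAA, any 3 bases, CC) and GAS (TTCNNNGAA). Of all 35116 RefSeq windows, 7.71% held AP-1, 1.85% CRE, 3.57% ISRE, 6.90% kappaB and 7.66% GAS. Neither BCL2L1 window held any of these letters. The PMAIP1 window held 1 kappaB match, at -155 and on the opposite strand. The BBC3 window held an AP-1 match at -113 and a pair of ISRE matches at 26 and 32, which overlap each other. Of the other members, BCL2A1 had an ISRE and a GAS match, and BAX, BCL2 and BCL2L11 had no match. These are descriptions of letters in a window and do not show binding.

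SMARCA4, the transfected gene, was examined as a check of the labels (chromosome 19, 10960932 to 11079426 of GRCh38, plus strand). Its normalised counts, which are estimated counts divided by a size factor for sequencing depth, were 1439, 1676 and 1538 in Control samples 1 to 3 and 108655, 79075 and 78589 in BRG1 samples 1 to 3, plasmid transcripts included. The libraries held between 29699741 and 63613710 estimated counts. BRG1 sample 3 was the shallowest, and member calls and list counts that change without it are given below. Control sample 3, at 61519212, was the deepest of the Control samples. Whether depth accounts for the changes without BRG1 sample 3 was not tested. SMARCA2, the other ATPase gene, whose loss also marks SCCOHT, lay between 3.79 and 35.7 in all samples. Of the granulosa cell markers, AMH lay between 227 and 398 in Control and between 341 and 455 in BRG1 samples. INHA lay between 35.7 and 47.5 in all samples, and FSHR and NR5A1 were at 3.32 or lower. AMHR2 was at 0 in every sample and FOXL2 was at 1.22 in Control 1 and at 0 in the others. The summed list ran from 291 to 472 in Control and from 641 to 922 in BRG1 samples, with 1 of its 7 genes called higher, CYP19A1. Leukocyte markers summed to 346 to 677 in Control and 379 to 758 in BRG1 samples, nearly all of it PTPRC, while CD3E was under 1 in every sample and 1 of the 5 genes was called higher, LYZ. The part of either list in the changes of the members was not tested.

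**Figure D1:**
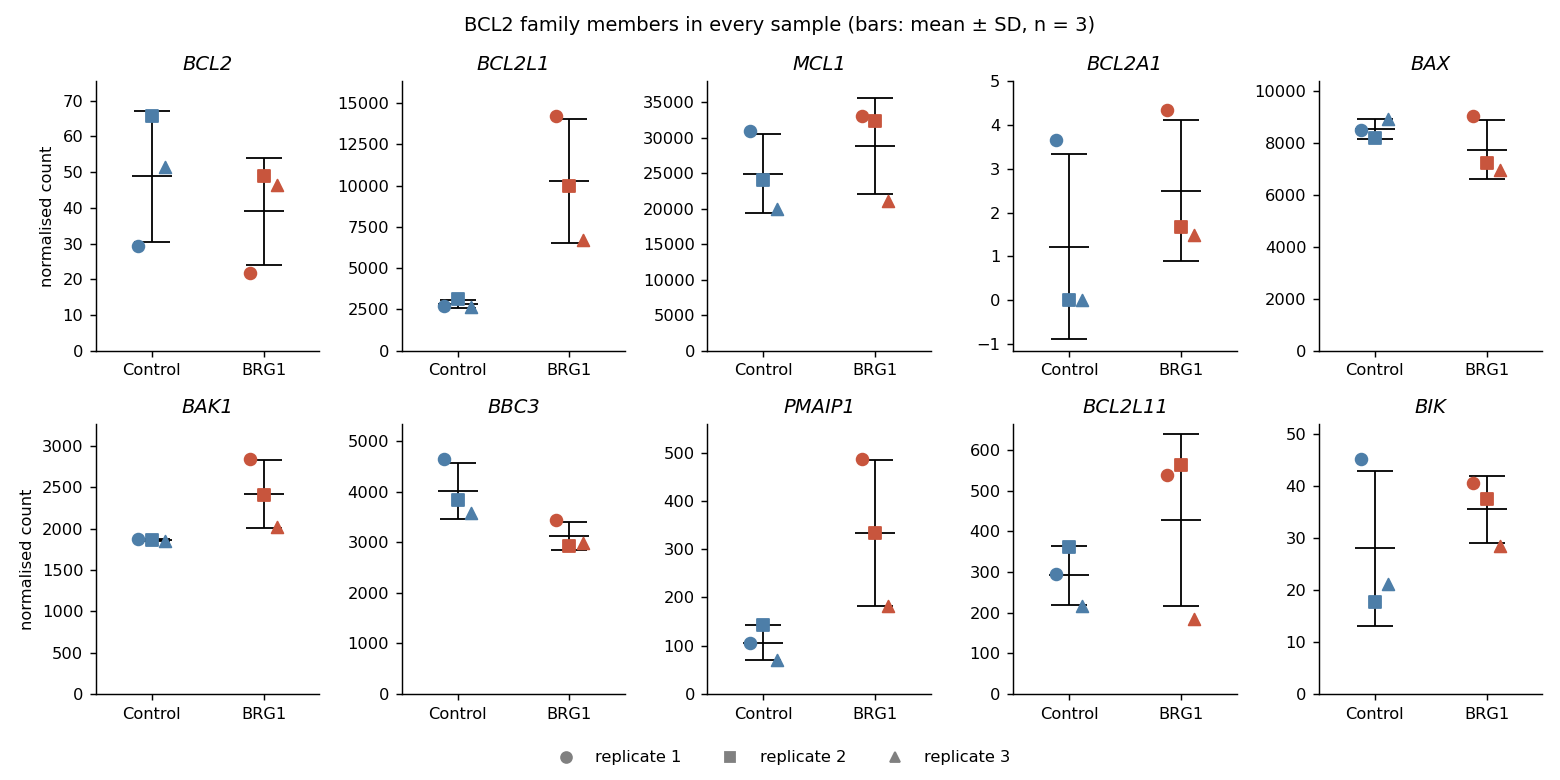
Normalised count (y axis, linear, a separate scale for each gene) of the 10 members in Control and BRG1 samples; each point is 1 sample, its shape the replicate number, and black bars are the mean ± SD (n = 3). BCL2L1 and PMAIP1 show BRG1 points that all lie above the Control points, and in both the replicate 3 point is the lowest of the BRG1 group.

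The anti-apoptotic members were taken first. BCL2L1 (chromosome 20, 31664452 to 31723989, minus strand) had normalised counts of 2729, 3113 and 2635 in Control samples and of 14203, 9980.3 and 6699 in BRG1 samples. Every BRG1 sample exceeded the highest Control sample, and the BRG1 samples were spread far more widely than the Control samples. Control samples averaged 2826 ± 254 and BRG1 samples 10294 ± 3762 (SD, n = 3). On the log2 scale the change was 1.87 ± 0.27 (standard error, DESeq2 adjusted p = 2.6e-10, edgeR adjusted p = 0.00233), and the 95% interval of the fold ran from 2.51 to 5.28. Within replicate numbers the fold was 5.20, 3.21 and 2.54. By p-value BCL2L1 ranked 525 among all genes, and of the 1764 genes called higher, 1169 changed by a larger fold. In GENCODE, 41.3% of its exonic bases also belong to the long non-coding gene ABALON. The libraries did not keep strand, and ABALON has no value of its own in the table, so reads of both genes cannot be told apart over those bases.

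MCL1 encodes a short-lived survival protein and spans chromosome 1, 150560895 to 150579738, minus strand. It had the largest counts of the members, at 30986, 23988 and 19927 in Control and 33043, 32414 and 21026 in BRG1 samples. The groups overlapped, with the lowest BRG1 sample below 2 of the Control samples. MCL1 was not called (log2 fold change 0.21, DESeq2 adjusted p = 0.761), and the 95% interval of the fold ran from 0.825 to 1.62, which leaves out a rise of the size fitted for BCL2L1.

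BCL2 and BCL2A1 were hardly expressed. BCL2, the founding member of the family (chromosome 18, 63123346 to 63320128, minus strand), had 29.2, 65.7 and 51.5 normalised counts in Control and 21.8, 49.0 and 46.3 in BRG1 samples. The groups overlapped, and the 95% interval of its log2 fold change, from -1.35 to 0.68, was wide at these counts (fitted value -0.34, DESeq2 adjusted p = 0.834). BCL2A1, an inducible survival gene known as a target of NF-kappaB (chromosome 15, 79960892 to 79971196, minus strand), held 3, 0 and 0 estimated counts in Control and 6, 2 and 1 in BRG1 samples. With every Control sample at 3 counts or fewer and only BRG1 sample 1 above that, no fold is given, and a difference was not detectable at this depth.

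Neither effector was called in the unpaired fits of all samples, and BAK1 was called higher in the paired DESeq2 fit. BAX (chromosome 19, 48954815 to 48961798, plus strand) had 8494, 8158 and 8914 normalised counts in Control and 9013, 7230.0 and 6955 in BRG1 samples. BRG1 sample 1 was above all Control samples and the other BRG1 samples were below them. BAX was not called (log2 fold change -0.14, DESeq2 adjusted p = 0.737), with an interval of the fold from 0.734 to 1.12.

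BAK1 (chromosome 6, 33572547 to 33580293, minus strand) had 1878, 1864 and 1852 normalised counts in Control and 2835, 2409 and 2013 in BRG1 samples. The Control samples lay close together, and every BRG1 sample was above them. Control samples averaged 1865 ± 13.3 and BRG1 samples 2419 ± 411 (SD, n = 3), a fold of 1.30 with an interval from 1.03 to 1.64. BAK1 was not called by DESeq2 without the pairing (log2 fold change 0.38, adjusted p = 0.161). It was called with the replicate block (log2 fold change 0.36, DESeq2 adjusted p = 0.0408) and without BRG1 replicate 3 (log2 fold change 0.49, DESeq2 adjusted p = 0.00961). edgeR with the block did not call it (adjusted p = 0.0515).

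**Figure D2:**
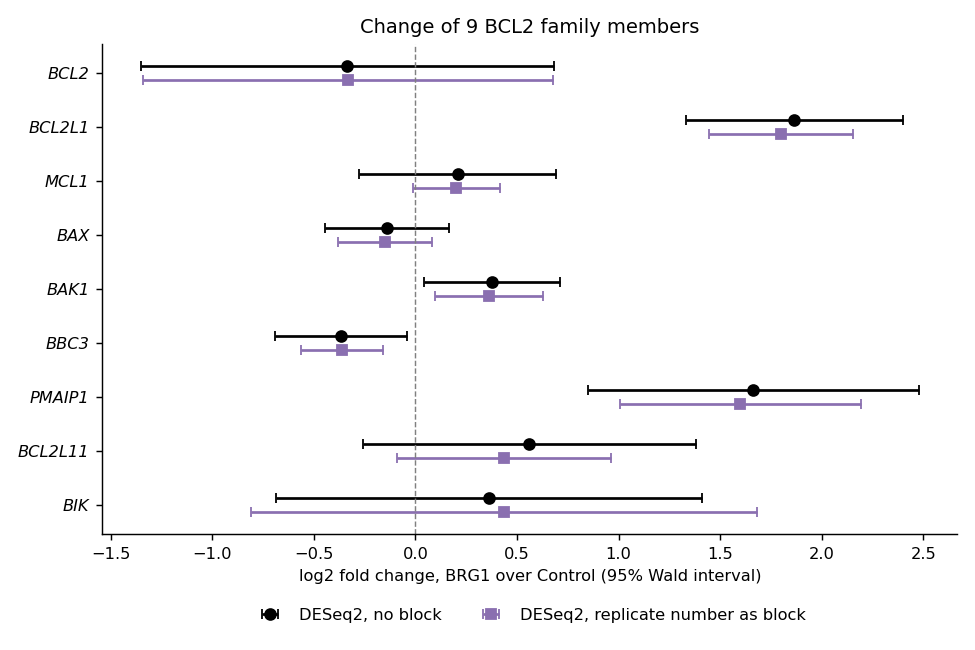
Fitted log2 fold change of BRG1 over Control (x axis) for 9 members (y axis) with 95% Wald intervals, from DESeq2 without (circles) and with (squares) the replicate number as a block; BCL2A1 is left out for its low counts. BCL2L1 and PMAIP1 stand apart at 1.87 and 1.66, and BAK1 and BBC3 lie at 0.38 and -0.37 with intervals that leave out 0.

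Among the BH3-only members PMAIP1 changed most. PMAIP1, whose product NOXA binds MCL1 and the BCL2A1 protein, spans chromosome 18, 59899996 to 59904305, plus strand. Its normalised counts were 106, 142 and 70.4 in Control and 486, 333 and 182 in BRG1 samples. All BRG1 samples were above all Control samples, with BRG1 sample 3 the closest to them. Control samples averaged 106 ± 35.7 and BRG1 samples 334 ± 152 (SD, n = 3), which on the log2 scale is a change of 1.66 ± 0.42 (standard error, DESeq2 adjusted p = 0.000814, edgeR adjusted p = 0.0426). The interval of the fold ran from 1.80 to 5.57, and within replicate numbers the fold was 4.59, 2.35 and 2.59. Its rank by p-value was 1240.

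BBC3, which encodes PUMA, a strong inducer of death, spans chromosome 19, 47220822 to 47232766, minus strand. It had 4645, 3850 and 3581 normalised counts in Control and 3438, 2923 and 2997 in BRG1 samples. Every BRG1 sample was below every Control sample, but the gap between the groups was smaller than the spread within either. Control samples averaged 4025 ± 553 and BRG1 samples 3119 ± 279 (SD, n = 3), and the gene was not called without the pairing (log2 fold change -0.37, DESeq2 adjusted p = 0.150, edgeR adjusted p = 0.138). With the replicate block it was called lower by DESeq2 (log2 fold change -0.36, adjusted p = 0.00361) and by edgeR (adjusted p = 0.0227). The within-number folds were 0.740, 0.759 and 0.837.

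BCL2L11 encodes BIM, which can bind every anti-apoptotic member and activate BAX, and spans chromosome 2, 111119378 to 111168444, plus strand. It had 296, 362 and 217 normalised counts in Control and 539, 563 and 184 in BRG1 samples. BRG1 samples 1 and 2 were above all Control samples, and BRG1 sample 3 was below all of them. BCL2L11 was not called (log2 fold change 0.56, DESeq2 adjusted p = 0.531), nor with the replicate block (adjusted p = 0.292). Without BRG1 replicate 3 the log2 fold change was 0.92 (DESeq2 adjusted p = 0.00656), so that this 1 library decided the call. Exons of MIR4435-2HG, also listed in the table, cover 10.8% of its exonic bases.

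BIK encodes a BH3-only protein of the endoplasmic reticulum and spans chromosome 22, 43110750 to 43129712, plus strand. Its normalised counts were 45.1, 17.6 and 21.2 in Control and 40.6, 37.4 and 28.4 in BRG1 samples. The groups overlapped, and the interval of its fold, from 0.621 to 2.66, allows both a fall and a rise (DESeq2 adjusted p = 0.823).

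**Figure D3:**
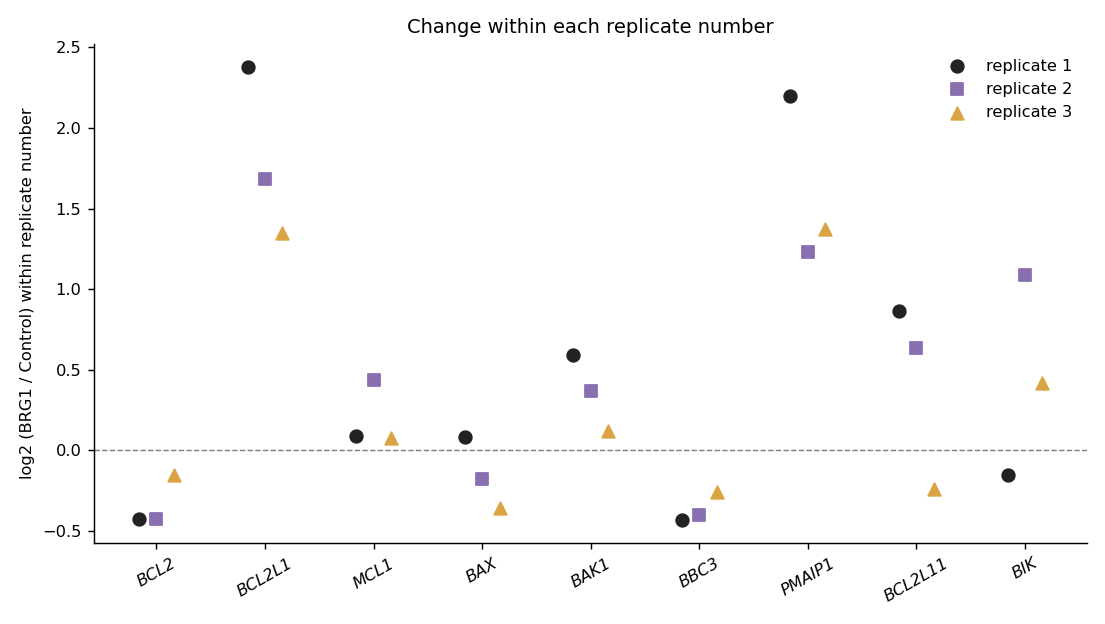
Log2 of the BRG1 over the Control normalised count within each replicate number (y axis) for 9 members (x axis); shapes and colors give the replicate number. BCL2L1, PMAIP1, BAK1 and MCL1 are above 0 and BBC3 and BCL2 below 0 in all 3 numbers, while BCL2L11 is below 0 in replicate 3 alone.

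The size of the response differed between replicate numbers. For BCL2L1, BAK1 and BCL2L11 the fold was largest in number 1 and smallest in number 3, whereas for PMAIP1 it was smallest in number 2 (2.35) and for BBC3 the fall was smallest in number 3. The SMARCA4 fold within numbers was 75.5, 47.2 and 51.1. With 3 numbers no relation between the values was tested.

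Levels were compared between members per kb of the canonical GENCODE transcript. In Control samples BAX stood highest at 10719 ± 476 normalised counts per kb, followed by MCL1 at 6321 ± 1416, BBC3 at 2181 ± 300, BCL2L1 at 1098 ± 98.5 and BAK1 at 859 ± 6.12 (SD, n = 3). These 5 did not overlap their neighbours. BCL2L11 (57.2 ± 14.3), PMAIP1 (55.9 ± 18.8) and BIK (29.4 ± 15.7) followed, with samples that overlapped between neighbours, and BCL2 (7.09 ± 2.67) and BCL2A1 (1.56 ± 2.71) came last and also overlapped. In BRG1 samples BCL2L1 moved to rank 3 at 3999 ± 1462, above BBC3 at 1690 ± 151 and with samples that overlapped those of MCL1 (7298 ± 1712). PMAIP1, at 176 ± 80.0, stood above BCL2L11 at 84.1 ± 41.7 with overlapping samples. The order at the top depends on the length used. Over all annotated exonic bases in place of the canonical transcript, an alternative chosen after seeing the data, MCL1 was above BAX in Control (4013 ± 899 against 3294 ± 146 per kb) and BAK1 was above BCL2L1 (843 ± 6.00 against 673 ± 60.4).

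The makeup of the anti-apoptotic group moved with BCL2L1. Per kb of canonical transcript, BCL2L1 made up 11.9%, 16.6% and 16.8% of the summed level of the anti-apoptotic members in Control samples and 39.7%, 32.1% and 32.8% in BRG1 samples. MCL1 made up nearly all of the rest. The ratio of MCL1 to BCL2L1 was 7.40, 5.02 and 4.93 in Control and 1.52, 2.12 and 2.05 in BRG1 samples, and by exonic length 7.66, 5.20 and 5.10 against 1.57, 2.19 and 2.12. PMAIP1 made up 2.08%, 3.32% and 1.82% of the summed BH3-only level in Control and 11.3%, 9.19% and 5.37% in BRG1 samples. In BRG1 samples BBC3 remained the main share at 82.2% to 90.9%. By exonic length the PMAIP1 share was larger, at 3.03%, 4.82% and 2.66% in Control and 15.6%, 12.8% and 7.70% in BRG1 samples. These shares describe RNA and follow from the changes of the single genes given above.

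**Figure D4:**
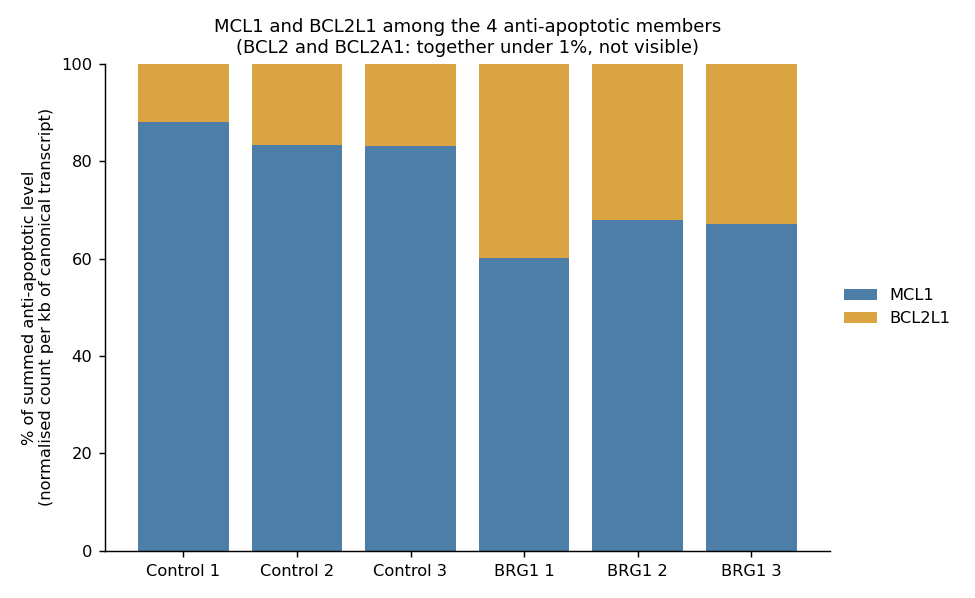
Share of MCL1 (lower part of each bar) and BCL2L1 (upper part) in the summed per-kb level of the 4 anti-apoptotic members (y axis, %) for each sample (x axis). The BCL2L1 part is 11.9% to 16.8% in Control and 32.1% to 39.7% in BRG1 samples.

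The other genes of the BCL2 family were then counted. Of 13 further family genes, DESeq2 called 0 higher and 0 lower, edgeR likewise 0 and 0, and at an unadjusted p under 0.05 there were 2 higher and 1 lower. Their log2 fold changes had a median of 0.05, and the 10 genes with a mean of at least 10 normalised counts ran from -0.37 to 0.76. Below that mean, BCL2L14 had 0 estimated counts in every Control sample and 9, 10 and 3 in BRG1 samples. Its fitted log2 fold change was 5.10, with a wide interval from 1.43 to 8.78 (DESeq2 adjusted p = 0.0507). The paired fit called BNIP3L and BAD, which, like BCL2L14, fall outside the naming rule and were named after their values were seen. BNIP3L, a mitochondrial receptor for mitophagy, had 1837, 1193 and 1308 normalised counts in Control and 3628, 2116 and 1599 in BRG1 samples, a log2 fold change of 0.70 with the block (DESeq2 adjusted p = 0.000183, edgeR adjusted p = 0.0102). BAD, a BH3-only gene controlled by survival kinases, had 1434, 1575 and 1411 in Control and 1223, 1125 and 1075 in BRG1 samples, a log2 fold change of -0.37 with the block (DESeq2 adjusted p = 0.0286, edgeR adjusted p = 0.0326). In the unpaired DESeq2 fit neither passed (adjusted p = 0.117 and adjusted p = 0.0578), but BAD passed in it with TMM factors or the low-count filter, and BNIP3L passed without BRG1 replicate 3.

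Downstream of the mitochondrion, both DESeq2 and edgeR called 1 of 18 genes higher and 1 lower, and the median over the list was -0.17 (log2). The gene called lower is described here. DFFA, the inhibitor of the apoptotic nuclease DFFB, had 7447, 7219.7 and 6346 in Control and 5347, 5223 and 5267 in BRG1 samples, or -0.41 ± 0.13 on the log2 scale (standard error, DESeq2 adjusted p = 0.0115, edgeR adjusted p = 0.0425). The DFFA call was lost when any 1 of 4 libraries was left out, as given with the processing alternatives. DESeq2 called 4 genes of the list lower without BRG1 replicate 3, in a fit that called 596 of all genes lower. In the paired fit 2 genes were lower, DFFA and BIRC5, a gene of inhibitor-of-apoptosis type that also acts in mitosis. BIRC5 and USP9X, described next, were likewise named after their values were seen.

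Of 9 genes for partners and turnover of the members, 0 were called in either direction by DESeq2 and by edgeR. Before adjustment 1 had a p under 0.05, on the lower side. DESeq2 without BRG1 replicate 3 called 1 higher and 1 lower. In the paired fit 1 was lower: USP9X, a deubiquitinase of MCL1, went from 51156 ± 2815 to 39173 ± 4733 normalised counts (SD, n = 3; log2 fold change with the block -0.39, DESeq2 adjusted p = 0.000133).

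Transcription factors known to act on members were examined next. Of 18, DESeq2 and edgeR each called 2 higher and 0 lower, and no factor had an unadjusted p under 0.05 on the lower side (0 genes). The 2 of 18 called higher were near the shares over all genes, 11.0% by DESeq2 and 9.57% by edgeR. FOXO1, which can activate BCL2L11, had 191, 118 and 100 normalised counts in Control and 1491, 1152 and 412 in BRG1 samples, which is 2.90 on the log2 scale (DESeq2 adjusted p = 2.6e-09). In the paired fit the counts were 7 higher and 1 lower with DESeq2, and 6 and 0 with edgeR. Without BRG1 replicate 3 the unpaired DESeq2 fit called 3 higher and 0 lower. Of all genes, 2095 and 1950 were called higher in the paired fits of DESeq2 and edgeR, and 1974 without BRG1 replicate 3.

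All 10 NF-kappaB target genes had fitted changes above 0, with 4 higher and 0 lower calls from DESeq2 and 3 and 0 from edgeR. Of all 16002 tested genes, 7731 were above 0. The smallest log2 fold change of the 10 was 0.31 (DESeq2 adjusted p = 0.844), so the count above 0 includes genes with no detected change. With the block each tool called 6 higher and 0 lower, and limma-voom called 2 higher. Without BRG1 replicate 3 the unpaired DESeq2 fit called 5 higher. CCL20, TNFAIP2, TRAF1 and CXCL8 had log2 fold changes of 4.75, 2.95, 2.01 and 1.25, and CXCL8, whose groups overlapped, was not called by edgeR (adjusted p = 0.136) or by DESeq2 with the block (adjusted p = 0.0718) and was called by edgeR with the block (adjusted p = 0.0261).

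The interferon response moved in the same samples as BCL2L1 and PMAIP1. Of 10 genes of that response, DESeq2 and edgeR each called 9 higher and 0 lower, with log2 fold changes from 2.90 to 9.72 among those called. Its part in the change of the members was not tested.

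**Figure D5:**
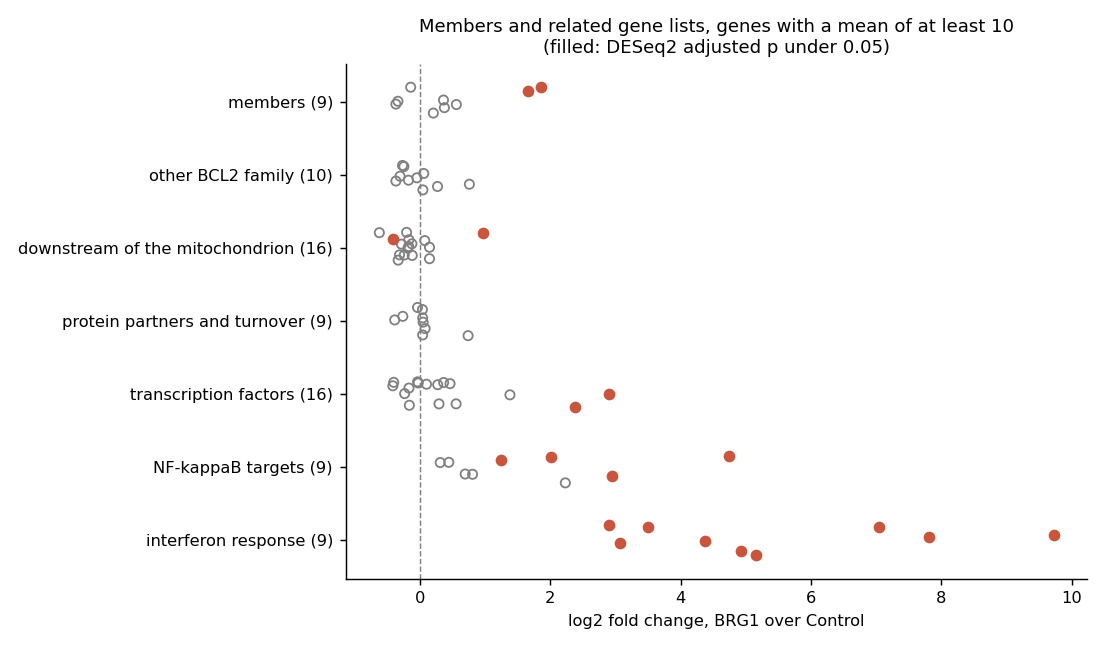
Log2 fold change of BRG1 over Control (x axis) for the members and for 6 related gene lists (y axis, number of genes drawn in brackets); each point is a gene with a mean of at least 10 normalised counts, filled where the DESeq2 adjusted p was under 0.05. Of the members 2 are filled, at 1.66 and 1.87, whereas all 9 interferon response genes drawn are filled and lie at 2.90 or above.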

How the data were processed

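RNA-seq libraries were made from poly(A) RNA of 3 Control and 3 BRG1 samples without keeping strand. The authors deposited 1 table of estimated counts, with a gene symbol in each row, which they made with STAR (2.5.3a), Salmon (0.8.2) and tximport on hg38 with GENCODE, as TPM scaled by transcript length and library size. Reads that fit several genes or isoforms were shared out by the model, and genes with overlapping exons are uncertain.

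The estimated counts were rounded. All genes were fitted with DESeq2 (1.42.0, R 4.3.3; the study's tool, Wald test, no covariate), and a gene was called at a Benjamini-Hochberg adjusted p under 0.05 over all genes. Intervals are the fold change ± 1.96 standard errors. edgeR (4.0.16) and limma-voom (3.58.1) with TMM factors were alternatives. On simulated data with 200 of 18096 genes changed by 2 on the log2 scale, DESeq2 recovered 90.5% but 25.8% of its calls were false. edgeR recovered 82.5% of the same 200, testing 14233 genes, with 5.17% false, so edgeR stands beside the DESeq2 calls. With the replicate block the false shares were 28.1% in DESeq2 and 7.51% in edgeR. No pairing was simulated and the number of changed genes was set, so these false shares do not carry over to the calls in the data. Deviations from group means correlated at 0.526, 0.549 and 0.608 between same-numbered samples over 14225 genes, so the replicate numbers were taken to pair the samples.

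The members and gene lists were chosen with earlier results of these data known. All members were named, and from the other lists up to 4 called genes in each direction with a mean of at least 10. Positions and lengths are from GENCODE 44, a later release than the authors used, on the same build. A few genes and 1 list are not reported here.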

Additional observations from a re-analysis of the deposited data

How the results depend on the processing

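Over 12 alternatives each, BCL2L1 kept a log2 fold change of 1.56 to 2.10 and PMAIP1 one of 1.29 to 1.96, and both were called in every one, PMAIP1 with an edgeR adjusted p = 0.0426 and a limma-voom adjusted p = 0.0448. No member with a fold changed direction in any alternative. Of 108 member values 103 kept their side of the threshold and 5 passed it, for BAK1, BBC3 and BCL2L11, as given in the report. Members called higher (2) ran from 2 to 4 (without BRG1 replicate 3) when a sample was left out. The fit that gave 4 also called more of all genes higher, 1974 against 1764 with every sample kept. Each of the other fits lacking a sample called fewer than 1764, with 1350 as the smallest count. Members called lower (0) were 1 with the replicate block under DESeq2 and 1 under edgeR with the block. All genes called lower (294) were 1035 with the block, 809 with edgeR and the block, 146 with edgeR, 169 with limma-voom and 130 at an adjusted p under 0.01. Leaving out a sample gave 116 (BRG1 replicate 2) to 596 (BRG1 replicate 3). Family and pathway genes called lower (1) were 2 with TMM factors, 2 with the low-count filter, 9 with the block (8 in edgeR) and 0 at the stricter threshold, and ran from 0 to 7 (without BRG1 replicate 3). The second with TMM factors or the filter was BAD. DFFA, the 1 call of the unpaired DESeq2 fit, was lost without BRG1 replicate 1 or 2 and without Control replicate 1 or 2. The cause was not tested. Counts limit BCL2, BIK and BCL2A1, whose intervals are wide or could not be given.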
